A study of Mus musculus with 26 samples.

Results

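Genes that mark lymphatic endothelium were followed across arteries of hypertensive and control mice, namely Prox1, Lyve1, Flt4, Pdpn, Ccl21a, Mmrn1 and Reln. They were chosen as a list of known markers, by symbol, with earlier results of these data known. All 7 were found among the 55416 gene identifiers of the aortic tables and the 55414 of the mesenteric tables. All 7 passed the filter on low counts in each fit. Poly(A) RNA had been sequenced from 2 vessel beds, the elastic aorta and the small muscular mesenteric arteries of the gut, of male C57BL6J mice in which both copies of Sphk1 were flanked by loxP sites. Sphk1 encodes sphingosine kinase 1, which makes the signalling lipid sphingosine-1-phosphate. Mice without Cre (WT) were sham controls or received angiotensin II (AngII), a pressor peptide, at 490 ng/kg/min for 14 days from an implanted pump, begun at 12 to 14 weeks of age. Mice with Cre under the promoter of Tagln, a smooth muscle gene (KO), received the same infusion. There were 4 WT sham, 4 WT AngII and 5 KO AngII libraries of each tissue, and the comparisons below contain no KO sham group. The labels give a number of mice per group and do not say whether the aorta and the mesenteric arteries came from the same animals.

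Lymphatic endothelial cells line the vessels that drain fluid and immune cells from tissues. In arteries these vessels run in the adventitia and the surrounding fat, outside the muscle layer in which Tagln-Cre acts. PROX1 is the transcription factor that specifies and maintains their identity, and VEGFR-3, the product of Flt4, is the receptor through which VEGF-C drives their growth. CCL21 from lymphatic endothelium draws dendritic cells and T cells that carry CCR7. LYVE1 is a hyaluronan receptor of lymphatic capillaries that resident macrophages of the vessel wall also carry, podoplanin (Pdpn) is a glycoprotein that fibroblasts and mesothelium also make, multimerin 1 (Mmrn1) is also a platelet protein, and reelin (Reln) is a secreted glycoprotein of collecting lymphatics better known from the brain.

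Depth per library, as counts falling in genes, ranged from 23.49 to 32.25 M for aorta and from 17.54 to 30.05 M for mesenteric arteries. Sphk1 itself was 3.17 to 6.19 CPM (counts scaled to library size) in sham aortas, 12.1 to 25.2 in WT AngII aortas and 1.78 to 3.43 in KO AngII aortas. In the mesenteric arteries Sphk1 was 7.15 to 9.12 CPM in sham, 9.51 to 17.3 in WT AngII and 2.81 to 4.62 in KO AngII libraries. Each KO library thus lay below each WT AngII library of its tissue. Summed smooth muscle markers were high in both tissues, at 18150 to 38020 CPM over the aortas and 19220 to 39200 CPM over the mesenteric libraries. Some mesenteric libraries stood apart. KO AngII replicate 3 and WT AngII replicate 1 held 521.9 and 129.7 CPM of 10 summed B and T lymphocyte markers, against 7.338 to 67.24 CPM in the others, and markers of gut and pancreas ranged from 12.14 to 45650 CPM. KO AngII replicates 1 and 5 were the next highest in lymphocyte markers, at 67.24 and 63.74 CPM. Results that rest on the libraries high in lymphocyte markers are given below with and without them. No fit left out libraries by, or adjusted for, gut and pancreas markers, which ranged from 32.05 to 19980 CPM in sham mesenteric libraries. Their part in the mesenteric results was not tested.

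Promoter sequences are shown for Reln, Ccl21a and Mmrn1, the 3 genes with the greatest difference between the tissues, because these genes also varied together from library to library. Each run is the 250 bases before the RefSeq transcription start on build GRCm38.p6, 5′ to 3′ on the strand of the gene, with capitals where a short motif searched for matched on either strand.
Reln, chr5:22344706-22344955, minus strand: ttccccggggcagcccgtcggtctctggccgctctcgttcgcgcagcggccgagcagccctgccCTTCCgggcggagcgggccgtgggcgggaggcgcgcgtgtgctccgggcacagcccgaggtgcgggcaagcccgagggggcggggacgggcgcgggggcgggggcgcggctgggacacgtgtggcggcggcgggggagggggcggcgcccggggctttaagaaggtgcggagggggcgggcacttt
Ccl21a, chr4:42773992-42774241, minus strand: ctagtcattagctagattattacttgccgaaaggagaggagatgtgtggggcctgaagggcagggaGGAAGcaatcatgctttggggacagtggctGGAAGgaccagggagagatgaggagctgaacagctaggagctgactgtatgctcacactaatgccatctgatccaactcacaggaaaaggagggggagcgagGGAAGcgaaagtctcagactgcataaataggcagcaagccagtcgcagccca
Mmrn1, chr6:60944067-60944316, plus strand: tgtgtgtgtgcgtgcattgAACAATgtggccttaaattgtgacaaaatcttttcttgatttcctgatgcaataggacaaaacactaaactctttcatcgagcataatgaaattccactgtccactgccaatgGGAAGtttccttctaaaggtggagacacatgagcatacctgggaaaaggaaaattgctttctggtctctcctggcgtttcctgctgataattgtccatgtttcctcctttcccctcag
Motifs were searched for on both strands, the SOX core AACAAT, the COUP-TF half-site TGACCT, the GATA motif AGATAA and the ETS core GGAAG, and no matches overlapped. The table of promoters held 7 windows for 6 of the genes, with Prox1 represented by 2 starts. The ETS core was present in 6 of the 7 windows, and in 64.1% of all 32851 promoter windows of that length. The SOX core was found only in the Mmrn1 window among these 7 (9.42% of all windows), and the COUP-TF half-site only in that of Pdpn (14.0% of all). The GATA motif had no match in the 7 windows and was present in 9.99% of all. The Reln window was 80.0% G and C and the Mmrn1 window 42.4%, so the windows of these genes differ widely in base composition.

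In sham aortas, the levels of the 7 genes were very unequal. Per kilobase of exon, Lyve1 had a mean of 15.5 CPM per kb and Pdpn 9.09, and their ranges over the 4 sham libraries did not overlap (10.1 to 21.8 and 8.78 to 9.85). Ccl21a followed at 2.41 CPM per kb. Flt4 and Mmrn1 came next at 0.714 and 0.446 CPM per kb, with overlapping ranges, and Reln and Prox1 were lowest at 0.0464 and 0.0382 CPM per kb, also with overlapping ranges. For Prox1 these values rest on few reads, with counts of 18, 4, 11 and 5 in the 4 sham aortas. Of the 7 genes, Lyve1 and Pdpn were thus the most abundant in sham aortas, and Prox1 and Reln, which could not be ranked against each other, the least. Which cells these reads came from was not tested.

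In sham mesenteric arteries the order was another. Ccl21a was highest, at a mean of 117 CPM per kb and a range of 56.6 to 180.0 that overlapped no other member. Lyve1 and Mmrn1 followed at 24.7 and 21.4 CPM per kb, Pdpn and Flt4 at 9.92 and 8.28, Reln at 3.5 and Prox1 at 1.43. The ranges of Lyve1 and Mmrn1 overlapped, as did those of Mmrn1 and Pdpn and those of Pdpn and Flt4, while Reln and Prox1 lay apart from their neighbours. Ccl21a has near-identical gene copies in the mouse, and reads shared between copies may be lost or split in counting. The copy Ccl21b was at most 0.0785 CPM in these tables, so the level of Ccl21a is uncertain.

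**Figure D1:**
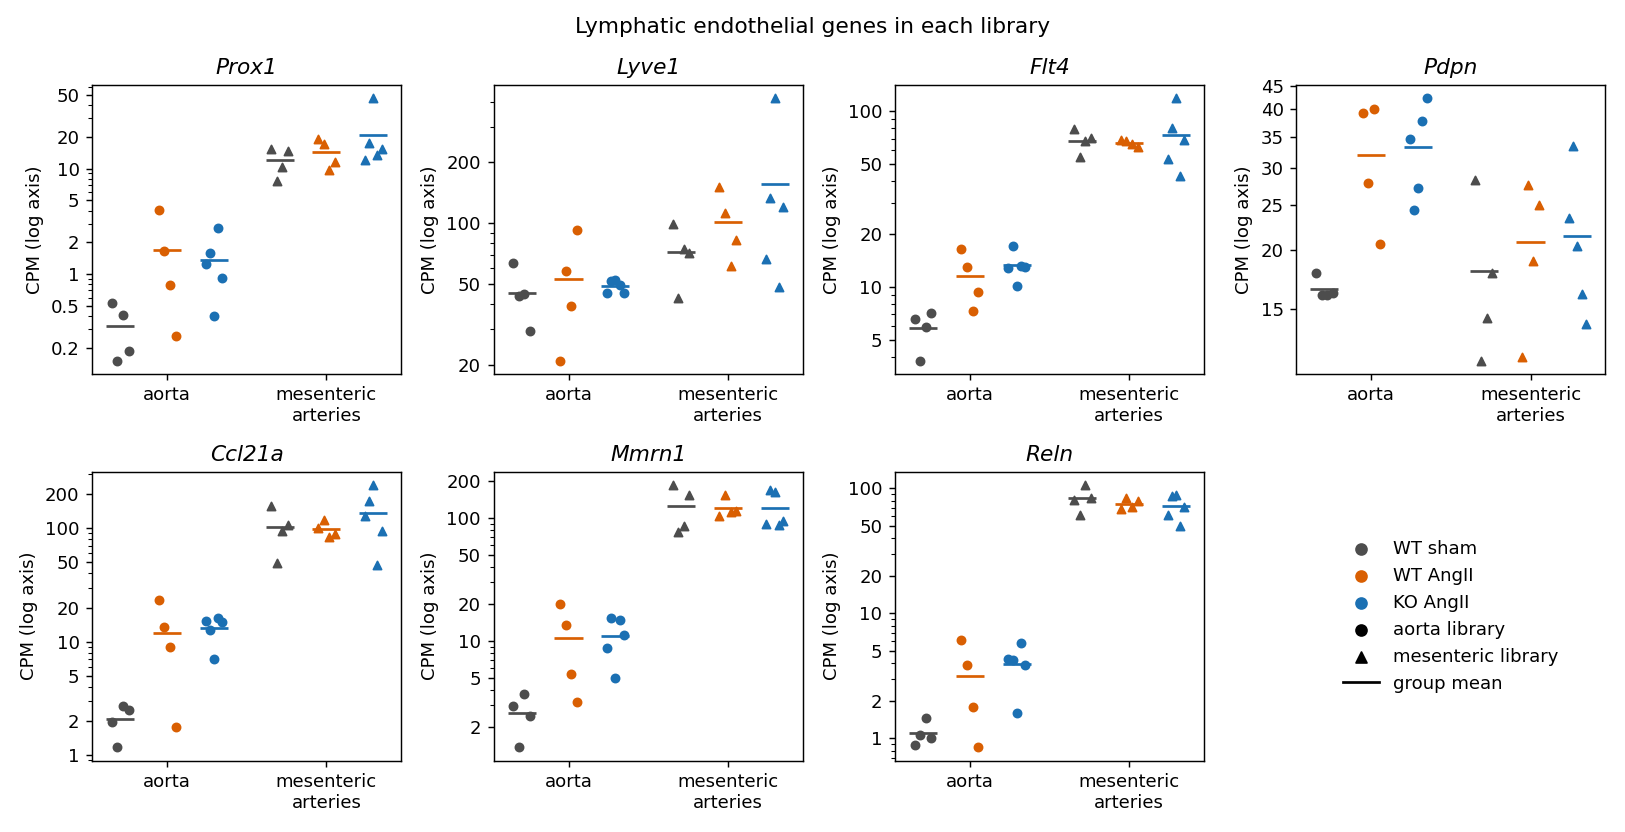
CPM of the 7 lymphatic endothelial genes in each of the 26 libraries, on log axes that differ between panels, with circles for aorta, triangles for mesenteric arteries and a line at each group mean. Prox1, Flt4, Ccl21a, Mmrn1 and Reln are higher in the mesenteric libraries of each condition than in its aortic libraries, with no overlap, while Lyve1 and Pdpn overlap.

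Prox1, Flt4, Ccl21a, Mmrn1 and Reln were far higher in mesenteric arteries than in aortas of sham mice, and Lyve1 and Pdpn were not called different. By edgeR's quasi-likelihood test with Benjamini-Hochberg adjustment over all genes, 5 of the 7 were higher at an adjusted p below 0.05, and none was lower. Of all 18520 genes tested, 38.4% were called, 20.7% higher and 17.7% lower in the mesenteric arteries. The ranges of the 4 sham aortas and the 4 sham mesenteric libraries did not overlap for the same 5 genes, and 22.7% of all genes tested were higher in the mesenteric arteries without overlap. Tissue and the way each vessel was dissected cannot be told apart here, and in bulk tissue fewer cells of a type and less RNA per cell cannot be told apart either.

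The greatest difference was that of Reln. It measured 0.893, 1.06, 1.45 and 1.01 CPM in the 4 sham aortas and 80.7, 61.7, 107 and 83.6 CPM in the 4 sham mesenteric libraries, a log2 difference of 6.24 ± 0.444 (SE, edgeR adjusted p = 1.11e-10). No aortic library of any group came above 6.13 CPM, and no mesenteric library below 50.4 CPM. Ccl21a was 1.96, 1.17, 2.74 and 2.5 CPM in sham aortas and 157, 49.3, 94.6 and 106 CPM in sham mesenteric arteries, a log2 difference of 5.60 ± 0.614 (edgeR adjusted p = 1.2e-07). Mmrn1 was 2.98, 1.36, 3.67 and 2.46 CPM against 186, 77, 86.1 and 153 CPM, a log2 difference of 5.58 ± 0.526 (edgeR adjusted p = 1.07e-08). For these 3 genes the lowest sham mesenteric library lay many-fold above the highest sham aorta.

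Prox1 was 0.536, 0.151, 0.408 and 0.186 CPM in sham aortas and 15.4, 7.59, 10.3 and 14.8 CPM in sham mesenteric arteries, a log2 difference of 5.18 ± 0.713 (edgeR adjusted p = 3.46e-06). Flt4 was 6.61, 3.82, 5.97 and 7.12 CPM against 79.1, 55, 68 and 70.4 CPM, a log2 difference of 3.53 ± 0.282 (edgeR adjusted p = 7.56e-10). Both genes separated the tissues without overlap. Lyve1, in contrast, was 63.5, 43.8, 44.6 and 29.5 CPM in sham aortas and 99.6, 42.9, 74.9 and 71.1 CPM in sham mesenteric arteries, which overlapped (log2 difference 0.67, 95% interval -0.36 to 1.69, edgeR adjusted p = 0.306). Pdpn was 17.9, 16, 16 and 16.2 CPM in sham aortas and 28.3, 11.6, 14.3 and 17.9 CPM in sham mesenteric arteries (log2 difference 0.13, interval -0.48 to 0.74, edgeR adjusted p = 0.771).

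Under AngII 5 of the 7 genes were called higher in the mesenteric arteries of WT mice, where 21.3% of all genes were higher and 40.4% were called in either direction, and the estimates were smaller than in sham mice. The 5 did not overlap between the tissues in WT AngII or in KO AngII mice, where 17.9% and 17.2% of all genes were higher without overlap. By edgeR the log2 differences were 4.58 ± 0.397 for Reln, 3.52 ± 0.466 for Mmrn1, 3.08 ± 0.609 for Prox1, 3.04 ± 0.526 for Ccl21a and 2.52 ± 0.268 for Flt4. In KO AngII mice these 5 and Lyve1 were higher in the mesenteric arteries, against 26.8% of all genes higher and 47.6% called. The log2 differences there were 4.18 ± 0.347 for Reln, 3.93 ± 0.566 for Prox1, 3.45 ± 0.416 for Mmrn1, 3.38 ± 0.476 for Ccl21a and 2.46 ± 0.239 for Flt4. For Lyve1 the difference was 1.68 ± 0.451 (edgeR adjusted p = 0.00385) and fell to 0.92 (edgeR adjusted p = 0.0426) when KO AngII mesenteric replicate 3, with its lymphocyte markers, was left out. Without the 4 mesenteric libraries that had over 1 CPM of the lymph node gene Glycam1, described below, it was 0.90 and not called (edgeR adjusted p = 0.123). Pdpn had negative log2 differences under infusion, -0.62 in WT and -0.63 in KO mice (edgeR adjusted p = 0.0982 and 0.0512), neither of which passed the test, although DESeq2, which called 48.8% of the genes it tested, called the difference in KO mice (19.1% and 20.8% of all genes were called lower by edgeR in WT and KO mice).

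Genes of blood endothelium were also higher in the mesenteric arteries. Of 10 pan-endothelial and blood endothelial markers, 9 were called higher in sham mesenteric arteries, with a median log2 difference of 2.15 over the 10 (all genes, median 0.02), and their summed level was 925.7 to 1030 CPM in sham aortas and 3797 to 3966 CPM in sham mesenteric arteries. The adhesion molecule Pecam1 differed by 1.74 and the VEGF receptor Flt1 by 2.01 on the log2 scale, both below the median of the 10. The 5 lymphatic genes, at 3.53 to 6.24, all had larger differences than that median. Other lists of lymphatic genes, described below, had calls in both directions in sham mice. Higher and lower were 3 and 2 of 7 further lymphatic markers, 4 and 3 of 9 VEGF-C genes and 5 and 3 of 10 transcription factors. They were 7 and 1 of 10 signalling genes, 6 and 2 of 9 valve and junction genes and 3 and 1 of 5 chemokine axis genes tested. Of all genes, 20.7% were higher and 17.7% lower. Of 6 platelet markers, which bear on Mmrn1, 3 could be tested and none was higher. Pf4, a platelet chemokine, was lower in the mesenteric arteries (log2 difference -1.33, edgeR adjusted p = 0.000582). The part of platelets in the reads of Mmrn1 was not tested.

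In WT aortas, AngII raised Prox1, Flt4, Pdpn, Ccl21a, Mmrn1 and Reln, from about 1.9-fold for Pdpn to about 5.6-fold for Ccl21a, and Lyve1 was not called. That is 6 of 7 higher and 0 lower, where 25.5% of 16863 genes tested were called, 14.7% higher and 10.8% lower, and the median log2 fold change was 1.51 over the 7 genes against 0.00 over all genes. The genes were chosen with earlier results of these data known, so this contrast is a description and no test of the list. With library size alone as the scaling, the median of all genes shifted to -0.13, the split of calls over all genes went from 2475 higher and 1826 lower to 1747 and 3729, and 5 of the 7 genes were called higher, Reln missing the threshold (edgeR adjusted p = 0.0584).

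Flt4 measured 6.61, 3.82, 5.97 and 7.12 CPM in sham and 16.5, 13, 7.33 and 9.38 CPM in WT AngII aortas, a log2 fold change of 0.96 ± 0.246 (SE, edgeR adjusted p = 0.0112). Pdpn went from 17.9, 16, 16 and 16.2 CPM to 39.3, 27.9, 40.1 and 20.6 CPM, a log2 fold change of 0.94 ± 0.208 (edgeR adjusted p = 0.00533). Only for these 2 of the 7 genes did the sham and WT AngII aortas not overlap, where 13% of all genes were higher without overlap, and each was called in all 22 alternative fits of this comparison.

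Ccl21a went from 1.17 to 2.74 CPM in sham aortas to 23.2, 13.6, 8.94 and 1.76 CPM in WT AngII replicates 1 to 4 (log2 fold change 2.49 ± 0.606, edgeR adjusted p = 0.0112). Prox1 went from 0.151 to 0.536 CPM to 4.05, 1.67, 0.789 and 0.257 CPM in the same libraries (2.35 ± 0.772, edgeR adjusted p = 0.0397). In both genes, replicate 1 was far above the sham range and replicate 4 inside it. Mmrn1 rose from 1.36 to 3.67 CPM to 20.1, 13.4, 5.41 and 3.2 CPM (1.99 ± 0.563, edgeR adjusted p = 0.0229). Reln rose from 0.893 to 1.45 CPM to 6.13, 3.84, 1.77 and 0.846 CPM (1.51 ± 0.52, edgeR adjusted p = 0.0485). The infused aortas thus stood in the same order for all 4 genes, and the spread of the WT AngII group was wide, as for Ccl21a at 11.9 ± 8.98 CPM (SD, n = 4) and Prox1 at 1.69 ± 1.68.

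The calls of Prox1, Mmrn1 and Reln depended on single libraries. Without WT AngII replicate 1, without WT AngII replicate 2, or without sham replicate 1, 2 or 4, only Flt4, Pdpn and Ccl21a were called, so that 3 of 7 remained. In those 5 fits edgeR called 3441 to 3662 of all genes, against 4301 with all libraries. Over all 13 omissions of 1 aortic library, Mmrn1 was called in 8, Prox1 in 5 and Reln in 3. Their log2 fold changes stayed above 0 throughout, at 1.44 to 2.73 for Prox1, 1.46 to 2.29 for Mmrn1 and 0.95 to 1.82 for Reln.

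Lyve1 did not follow them. It was 21.0, 58.4, 39.3 and 93.2 CPM in WT AngII aortas, against 29.5 to 63.5 CPM in sham, and had a log2 fold change of 0.20 (interval -0.59 to 1.00, edgeR adjusted p = 0.725). The WT AngII aorta highest in Prox1 and Ccl21a was the lowest in Lyve1, and the one lowest in them was the highest in Lyve1.

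**Figure D2:**
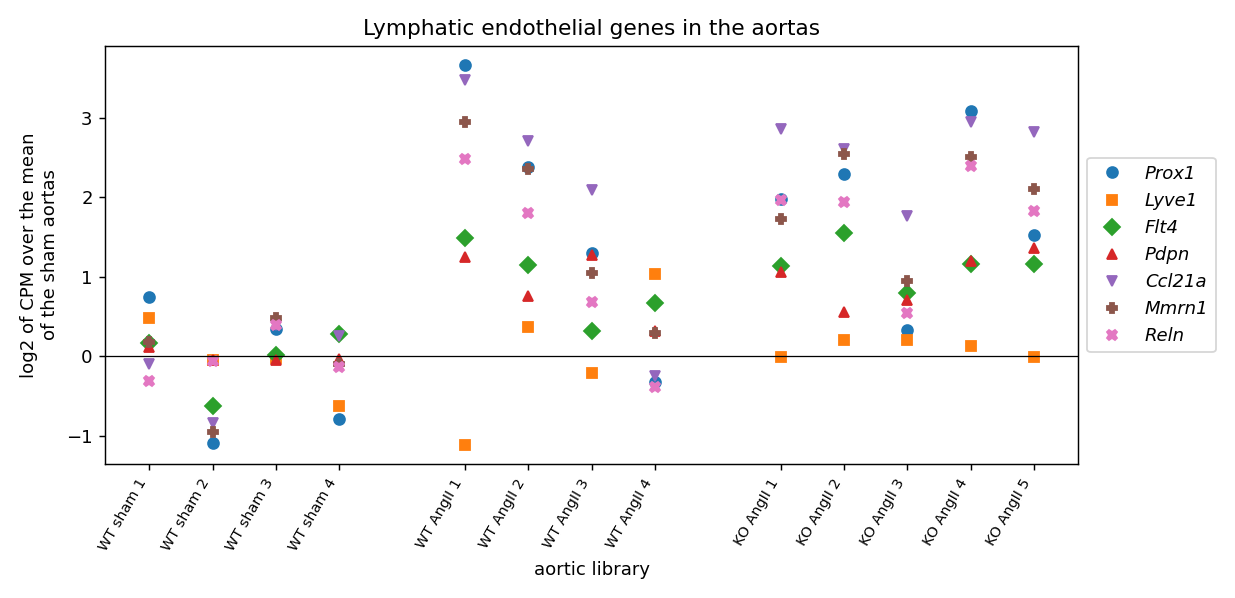
Level of each lymphatic endothelial gene in each of the 13 aortic libraries, as the log2 of its CPM over the mean of the 4 sham aortas (line at 0). Prox1, Ccl21a, Mmrn1 and Reln are highest in WT AngII replicate 1 and near or below the sham mean in replicate 4, where Lyve1 is at its highest, while Ccl21a is above the sham mean in all 5 KO AngII aortas.

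Other cell types also differed among these aortas. Summed adipocyte markers (7 of 7 present) were 1413, 786.6, 778.8 and 257 CPM in WT AngII replicates 1 to 4, against 251.8 to 1178 CPM in sham, the same order as for the 4 genes. None of the 7 adipocyte markers was called. With the adipocyte marker level as a covariate, an alternative added after seeing the data, 4 of the 7 genes were called, and Prox1 (log2 fold change 1.63) and Reln (1.05) were not, while 4628 of all genes were called. Fibroblast markers, which bear on Pdpn, were 7880 to 9347 CPM in sham and 21090 to 44300 CPM in WT AngII aortas. Of these 8 markers 5 were higher and 1 lower, where 14.7% of all genes were higher and 10.8% lower. The collagen gene Col1a1 led them (2.43 ± 0.23, edgeR adjusted p = 7.99e-06). Of 10 blood endothelial markers, 2 were higher, Flt1 (0.59) and Emcn (0.89), and 2 lower, Sox17 (-0.61) and Egfl7 (-0.45). These shares are near those of all genes, 6 of the 10 were uncalled, and their median log2 fold change was -0.03. Lymphocyte markers summed to at most 8.915 CPM in the aortas, 0 of 9 tested were called, and the lymph node gene Glycam1 was at 0 in every aorta. The part of fat and fibroblast content in these changes was not tested beyond the covariate.

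In the VEGF-C pathway, genes of ligand processing and a co-receptor rose, while the ligands were not called. Of 9 ligands, activators and co-receptors, 5 were higher in WT AngII aortas and none lower, where 14.7% of all genes were higher and 10.8% lower. Which cells these reads came from was not tested. Ccbe1, which helps cut VEGF-C into its active form, went from 11.1 ± 1.37 to 21.7 ± 4.02 CPM (SD, n = 4 each), a log2 fold change of 0.96 ± 0.142 (SE, edgeR adjusted p = 0.000243). Adamts3, the protease that makes that cut, rose by 0.88 (edgeR adjusted p = 0.00431), the matrix protein Svep1 by 0.74 and the co-receptor Nrp2 by 1.36 (edgeR adjusted p = 0.0391). Vegfc itself was 10.9 ± 1.39 CPM in sham and 12 ± 1.47 CPM in WT AngII aortas (log2 fold change 0.12, edgeR adjusted p = 0.535), and Vegfd had 0.15 (edgeR adjusted p = 0.689).

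Among regulators of lymphatic identity beside PROX1, none was called higher. Of 10 transcription factors of lymphatic specification and valves, none was higher and 3 were lower in WT AngII aortas: Gata2 (-0.83, edgeR adjusted p = 0.00846), Sox18 (-0.64) and Foxc1 (-0.41). These factors also act in blood endothelium or other cells of the wall. Of 10 genes of angiopoietin, adrenomedullin and sphingosine-1-phosphate signalling, 1 was higher and 1 lower, shares near the 14.7% and 10.8% of all genes. They were the lipid's exporter Spns2 (1.34 ± 0.178, edgeR adjusted p = 0.000101) and the adrenomedullin receptor Calcrl (-1.05). Among 9 valve and junction genes, 2 were higher, the mechanosensitive channel Piezo1 (0.76) and the connexin Gja1 (0.79), and none was lower, which is also near those shares.

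In the chemokine axis of Ccl21a, 5 of 7 genes could be tested and Ccr7, the receptor, was higher, from 0.0 to 0.112 CPM in sham aortas to 0.11 to 0.951 CPM after AngII (3.78 ± 0.957, edgeR adjusted p = 0.01), at very low counts. Of 7 further lymphatic markers, 3 were higher and 1 lower, where 14.7% of all genes were higher and 10.8% lower. Fxyd6, an ion pump regulator, went from 16.6 ± 3.89 to 63.9 ± 31.8 CPM (SD, n = 4 each), a log2 fold change of 1.93 ± 0.355 (SE, edgeR adjusted p = 0.00229). Clca3a1, a surface protein of lymphatic endothelium, rose by 2.53 (edgeR adjusted p = 0.0466) and the pentraxin Ptx3 by 1.56, while Fgl2 had -0.54.

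In the mesenteric arteries of WT mice, none of the 7 genes was called after AngII, where 0.183% of 17513 genes were called by edgeR. The unadjusted p was below 0.05 for 0 of the 7, and DESeq2 and limma voom called 0, where they called 1.78% and 1.43% of all genes. Flt4 was 79.1, 55, 68 and 70.4 CPM in sham and 69.1, 68, 65 and 62.8 CPM in WT AngII libraries (log2 fold change -0.04, interval -0.59 to 0.50). Reln was 80.7, 61.7, 107 and 83.6 CPM against 69, 83.6, 70.6 and 80 CPM (-0.14, interval -0.55 to 0.28). The upper bounds for these 2 genes lie below 0.6 on the log2 scale. Ccl21a was 157, 49.3, 94.6 and 106 CPM against 100.0, 119, 82.8 and 89.5 CPM (-0.06, interval -0.99 to 0.88), and Mmrn1 was 186, 77, 86.1 and 153 CPM against 104, 154, 112 and 113 CPM (-0.05, interval -0.72 to 0.62). The sham and WT AngII ranges overlapped for all 7 genes, and 8.82% of all genes did not overlap in one direction or the other.

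Prox1 had a log2 fold change of 0.26 (interval -0.68 to 1.19), at 19.2, 17.2, 9.62 and 11.5 CPM in WT AngII against 7.59 to 15.4 CPM in sham. Lyve1 had 0.50 (interval -0.75 to 1.75), at 152, 112, 61.5 and 83 CPM against 42.9 to 99.6 CPM. The highest library for both genes was WT AngII replicate 1, which holds lymphocyte markers. Pdpn had 0.21 (interval -0.53 to 0.94), at 11.8, 27.5, 19 and 25 CPM against 11.6 to 28.3 CPM. No gene of the VEGF-C, transcription factor, signalling, valve, chemokine or further marker lists was called in this comparison.

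**Figure D3:**
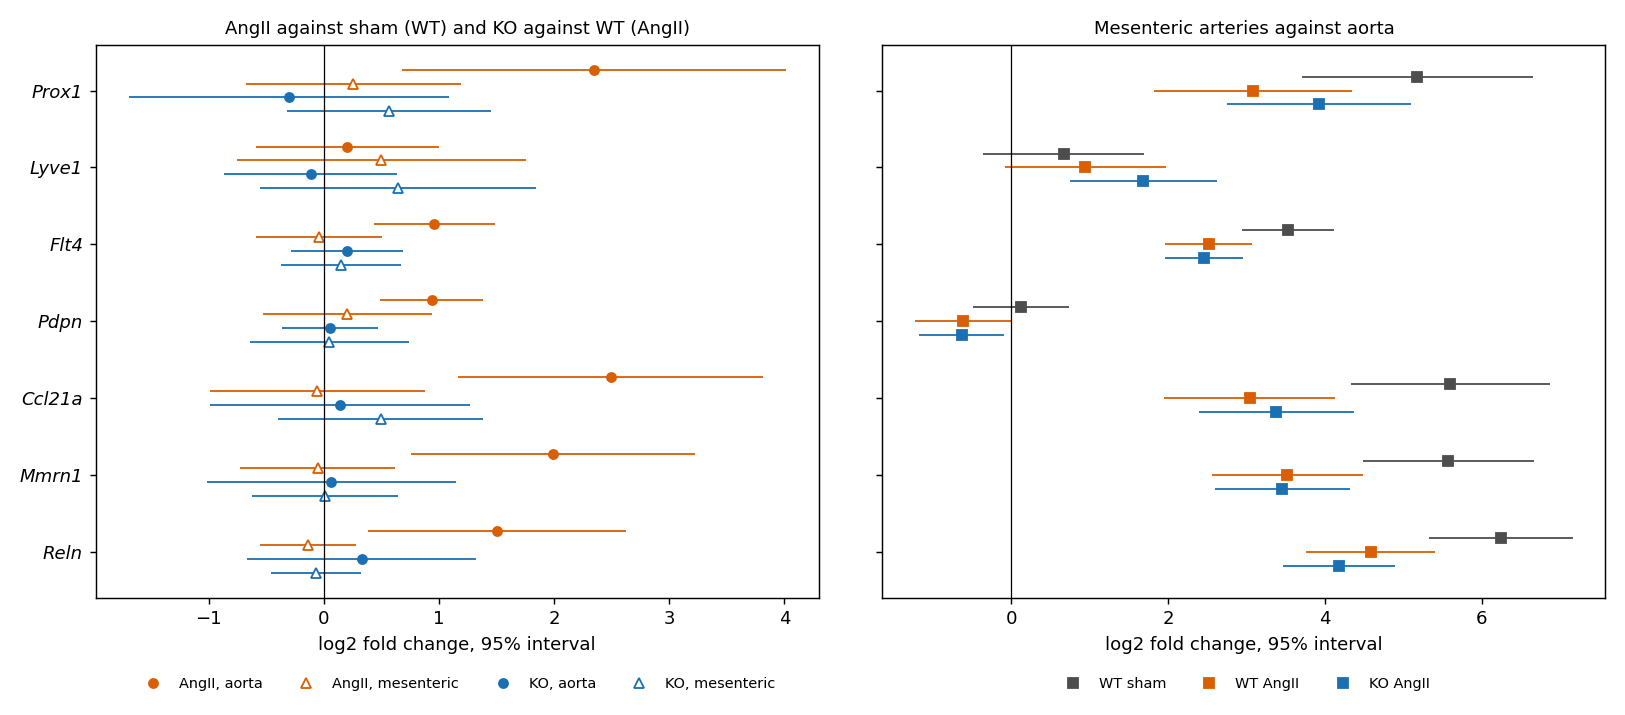
Log2 fold changes from edgeR with 95% intervals for the 7 genes: left, AngII against sham in WT mice (orange) and KO against WT under AngII (blue), with filled circles for aorta and open triangles for mesenteric arteries; right, mesenteric arteries against aorta in each condition. The aortic AngII intervals lie above 0 for all genes but Lyve1, and the KO intervals of both tissues all cross 0.

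The difference of the AngII effect between the tissues was tested directly in a fit of all 26 libraries. By edgeR 0 of the 7 genes were called, although 5 were at an unadjusted p below 0.05, where 2.34% of 18520 genes were called, 0.68% higher and 1.66% lower in their mesenteric response. The estimates were negative for 6 of the 7, at -2.56 ± 0.745 for Ccl21a (edgeR adjusted p = 0.0713), -2.05 ± 0.636 for Mmrn1 (adjusted p = 0.0922), -1.66 ± 0.551 for Reln (0.122), -1.01 ± 0.367 for Flt4 (0.164), -2.10 ± 0.894 for Prox1 (0.25) and -0.74 ± 0.415 for Pdpn (0.421). With DESeq2 the 3 genes Ccl21a, Mmrn1 and Reln were called, where 5.31% of all genes were, and with limma voom Flt4 and Mmrn1, where 6.75% were. With edgeR and WT AngII aorta 4 left out, Ccl21a, Mmrn1 and Reln were called, where 3.31% of all genes were. Leaving out KO AngII mesenteric replicate 4 or sham mesenteric replicate 2 gave 1 call each. A weaker response in the mesenteric arteries was therefore called or not according to the tool and to single libraries, and the tools and omissions with 2 or 3 calls also called more of all genes. Of the genes on the other lymphatic lists, 2 passed with edgeR, Fxyd6 (-2.24, adjusted p = 0.015) and Piezo1 (-0.75, adjusted p = 0.00645). They were 1 of 7 further markers and 1 of 9 valve and junction genes. None was called of 9 VEGF-C genes, 10 transcription factors, 10 signalling genes and 5 chemokine axis genes tested, where 2.34% of all genes were.

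Deletion of Sphk1 in cells with Tagln-Cre changed none of the 7 genes detectably under infusion. In the aorta 0 of 7 were called by edgeR, as against 0.00593% of all genes, which is 1 gene, with 0 of 7 at an unadjusted p below 0.05. DESeq2 and limma voom also called 0 of the 7, and 0.0356% and 0.00593% of all genes. Flt4 was 12.9, 17.2, 10.2, 13.2 and 13.1 CPM in KO AngII aortas, with a log2 difference from WT AngII of 0.20 (interval -0.29 to 0.69), and Pdpn was 34.5, 24.4, 27.1, 37.8 and 42.3 CPM (0.05, interval -0.37 to 0.47). For these 2 genes the interval excludes a change of 2-fold in either direction. Ccl21a was 15.1, 12.7, 7.08, 16.1 and 14.8 CPM (0.14, interval -0.99 to 1.27), Mmrn1 8.68, 15.3, 5.04, 14.9 and 11.2 CPM (0.07, interval -1.02 to 1.15) and Reln 4.32, 4.24, 1.61, 5.8 and 3.9 CPM (0.33, interval -0.66 to 1.32). Prox1 was 1.26, 1.57, 0.403, 2.71 and 0.924 CPM (-0.30, interval -1.70 to 1.09). The intervals of these 4 genes are wide enough to hold a change of 2-fold.

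Lyve1 was the most even of the 7 in KO AngII aortas, at 45.2, 52.1, 52.4, 49.7 and 45.1 CPM, within the range of WT AngII (log2 difference -0.12, interval -0.87 to 0.64). Replicate 3 was the lowest of the KO AngII aortas in Prox1, Flt4, Ccl21a, Mmrn1 and Reln, and it also had the lowest adipocyte marker sum of the 5, 668.8 CPM against 1089 to 1464 CPM. Whether fat content has a part in that order was not tested.

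Against the sham aortas, which also served as controls above, KO AngII aortas were called higher for 5 of the 7 genes, and 16.6% of all genes were higher, 30.8% called. The 5 were Ccl21a (2.63 ± 0.591), Mmrn1 (2.06 ± 0.547), Reln (1.83 ± 0.502), Flt4 (1.16 ± 0.236) and Pdpn (0.99 ± 0.2), with edgeR adjusted p of 0.00216 to 0.014. For these 5 genes each KO AngII aorta exceeded each sham aorta, as it did for 17.8% of all genes. Prox1 had 2.04 ± 0.752 (edgeR adjusted p = 0.0547), with 4 of 5 KO libraries above the sham range, and was called by DESeq2 and limma voom, which called 33.9% and 42.4% of all genes; Lyve1 had 0.09 (edgeR adjusted p = 0.866). With the adipocyte covariate Flt4, Pdpn and Ccl21a were called, and Mmrn1 and Reln were not, while 4043 of all genes were called in place of 5197. Of the 9 VEGF-C genes, 5 were higher in this comparison, among them Ccbe1 (1.14) and Nrp2 (1.59).

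In the mesenteric arteries the KO difference under AngII was called for 0 of 7 genes by edgeR, DESeq2 and limma voom alike, where edgeR called 0.00571% of all genes, DESeq2 0.0115% and limma voom 0.00571%, and 0 were at an unadjusted p below 0.05. Reln was 61.7, 87.5, 88.5, 50.4 and 71.3 CPM in KO AngII libraries (log2 difference -0.07, interval -0.46 to 0.32) and Flt4 53.7, 80.9, 119, 42.9 and 68.7 CPM (0.15, interval -0.37 to 0.67). Mmrn1 was 89.9, 169, 164, 88.1 and 94.1 CPM (0.01, interval -0.63 to 0.65). These 3 intervals, from the fit of all mesenteric libraries, exclude a change of 2-fold in either direction. The groups compared also differed in the share of records not aligned, as given below. Ccl21a was 128, 173, 241, 47.5 and 93.8 CPM (0.49, interval -0.40 to 1.39) and Pdpn 23.4, 33.4, 20.4, 16.1 and 13.9 CPM (0.05, interval -0.64 to 0.74).

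Lyve1 and Prox1 had a single library far above the rest. Lyve1 was 66.6, 134, 416, 48.4 and 121 CPM in KO AngII mesenteric replicates 1 to 5, and Prox1 12.0, 17.6, 46.7, 13.6 and 15.4 CPM. In both genes replicate 3 was highest, and this library also held 41.0 CPM of Glycam1, a gene of lymph node high endothelium, 41.5 CPM of Cr2, a gene of B cells and follicular dendritic cells, and 174 CPM of Stab2, a gene of sinus endothelium. Each of these 3 was at most 2.67 CPM in sham mesenteric arteries, where Glycam1 was at 0. WT AngII replicate 1 had 11.7, 10.1 and 54.4 CPM of the same genes, KO AngII replicate 1 had 14.2, 4.3 and 5.96 CPM, and KO AngII replicate 5 had 3.94, 2.64 and 23.2 CPM. Glycam1 thus exceeded 1 CPM in 4 of the 13 mesenteric libraries, all of them infused, and was at most 0.0723 CPM in the other 9.

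Against sham, KO AngII mesenteric arteries had log2 differences of 1.14 (interval -0.07 to 2.36) for Lyve1 and 0.82 (interval -0.07 to 1.72) for Prox1, and edgeR, DESeq2 and limma voom called 0 of the 7 genes, with 0 at an unadjusted p below 0.05, where edgeR called 0.708% of all genes, 0.457% higher and 0.251% lower, DESeq2 8.27% and limma voom 2.71%. Without KO AngII replicate 3 and WT AngII replicate 1 these values were 0.36 and 0.28. The KO difference of Lyve1 was 0.64 with all libraries and 0.12 without that pair, and that of Prox1 was 0.57 and 0.20. Without all 4 libraries with Glycam1 above 1 CPM, which leaves 2 KO AngII libraries, the values against sham were 0.34 for Lyve1 and 0.37 for Prox1, and the KO differences 0.10 and 0.29. Each of these 4 estimates was smaller under either omission, and none was called with or without these libraries. The difference of the KO effect between tissues was called by edgeR for 0 of 7 genes and 0% of all genes, with 0 of the 7 at an unadjusted p below 0.05 and 0 called by DESeq2 or limma voom (0.0811% and 0% of all genes).

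**Figure D4:**
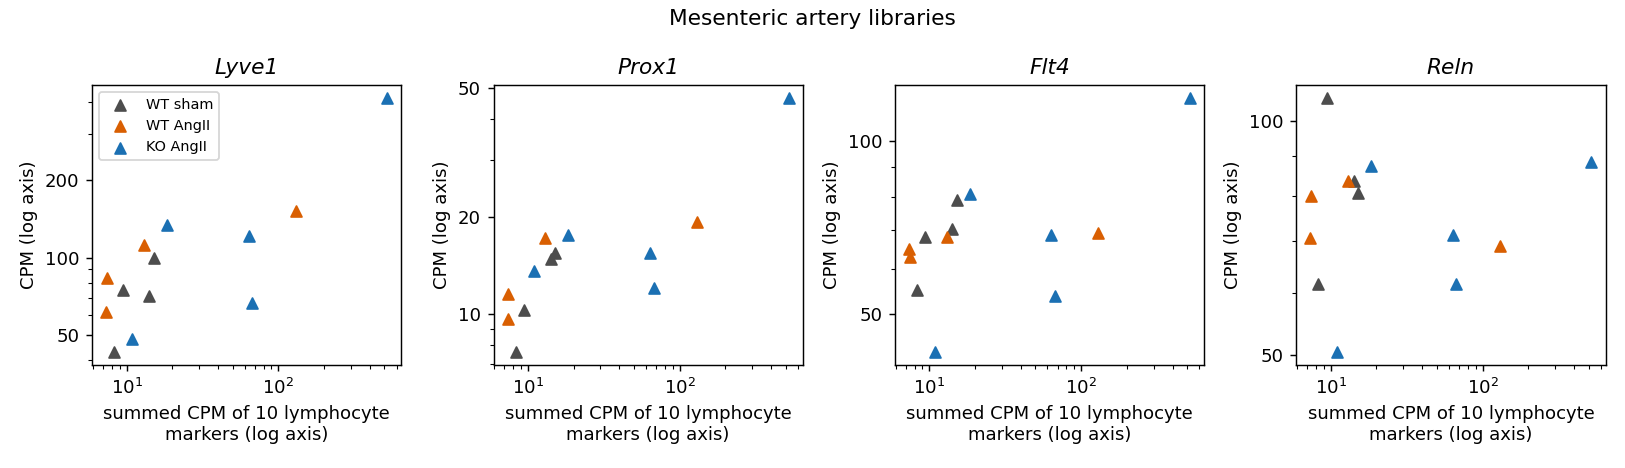
CPM of Lyve1, Prox1, Flt4 and Reln in the 13 mesenteric libraries against the summed CPM of 10 B and T lymphocyte markers, all axes logarithmic, coloured by group. Lyve1, Prox1 and Flt4 are highest in the KO AngII library at 521.9 CPM of lymphocyte markers, while Reln is highest in a sham library.

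The 7 genes did not vary as 1 group. Correlations were taken over residuals of log2 CPM from the group means, which share library, depth and tissue composition, and are descriptions only. Among Prox1, Flt4, Ccl21a, Mmrn1 and Reln, Pearson's r was 0.60 to 0.88 over the 26 libraries, 0.61 to 0.93 over the 13 aortas and 0.53 to 0.87 over the 13 mesenteric libraries, or 0.40 to 0.85 without KO AngII replicate 3. Lyve1 had r of -0.74 to -0.33 with these 5 over the aortas and 0.63 to 0.94 over the mesenteric libraries, or 0.575 to 0.89 without KO AngII replicate 3. Pdpn had 0.04 to 0.68 with them in the aorta.

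With the 9 macrophage markers of the list, Lyve1 had correlations of both signs in the aorta. Over the 13 aortas its r was 0.82 with F13a1, 0.77 with Timd4, 0.71 with Folr2 and 0.69 with Cd163, genes of tissue-resident macrophages, but 0.25 with Mrc1, which those cells also carry. It was -0.088 with Csf1r, -0.32 with Cd68, -0.45 with Cd14 and -0.68 with Adgre1, genes of macrophages at large. The macrophage list (9 of 9 present) summed to 372.9 to 565.9 CPM in sham and 527.5 to 633.3 CPM in WT AngII aortas. After AngII 5 of 9 were higher and none lower, where 14.7% of all genes were higher and 10.8% lower. Over the 13 mesenteric libraries all 9 were positive and the order was another, with r of 0.94 to 0.98 for Adgre1, Csf1r, Mrc1 and Cd68, 0.60 to 0.79 for Timd4, Cd163 and Cd14, 0.35 for Folr2 and 0.16 for F13a1. Without KO AngII replicate 3, r was 0.952 for Adgre1, 0.931 for Csf1r, 0.93 for Mrc1 and 0.894 for Cd68. It was then 0.605 for Timd4, 0.696 for Cd163, 0.466 for Cd14, 0.505 for Folr2 and 0.324 for F13a1. Over the 13 aortas, then, Lyve1 varied opposite to Prox1, Flt4, Ccl21a, Mmrn1 and Reln. Its own spread was widest in WT AngII aortas, at 21.0 to 93.2 CPM, against 29.5 to 63.5 CPM in sham and 45.1 to 52.4 CPM in KO AngII aortas. Sham replicate 1 was the highest sham aorta in both Lyve1 (63.5 CPM) and Prox1 (0.536 CPM). These counts cannot divide the reads of Lyve1 between macrophages and lymphatic endothelium.

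The genes most like each member over the 26 libraries were sought among 13078 named genes. Prox1 was most like Mmrn1 (r = 0.876), then Ggt5 (0.838) and Zfp36l2 (0.835), and Mmrn1 was most like Prox1, Ccl21a (0.85) and Adamts12 (0.842). For Ccl21a they were C1s1 (0.862), Col6a6 (0.859) and Mmrn1, and for Reln Igfbp3 (0.84), Unc45b (0.838) and Ccl21a (0.834). Members of the list thus appeared among the 3 nearest genes of Prox1, Mmrn1, Ccl21a and Reln. For Flt4 the nearest were Sh3bp5 (0.893), Trim25 (0.892) and Ssh2 (0.85), for Pdpn Lbp (0.894), Tmem100 (0.887) and Steap3 (0.886), and for Lyve1 Fcna (0.935), M6pr (0.888) and Cp (0.869), none of them on the list.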

How the data were processed

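The authors deposited, for each library, a table of read counts by Ensembl identifier; the submitters' processing notes name cutadapt, HISAT2, HTSeq and the build GRCm39. Versions, the annotation release and the strand setting are not given in the sources used here, and libraries were made with a directional poly(A) kit, per the labels' protocols. The 5 summary lines stayed out of library sizes and tests, and the share of records not aligned was 0.5717 to 14.7%, that of multiple alignments 4.816 to 12.99%. The share not aligned was 11.43, 14.7 and 14.23% in mesenteric KO AngII replicates 2, 3 and 4. It was 12.02% in mesenteric WT AngII replicate 1, and 0.8547 to 2.52% in the other mesenteric libraries, all sham ones included. It thus differed between the mesenteric groups compared, and its part in those results was not tested beyond leaving these libraries out. Symbols were matched for 52083 identifiers in the aorta and 52081 in the mesenteric arteries. No library was a copy of another: within groups, 44 pairs gave a chi-square of their counts, divided by its degrees of freedom, of 9.086 to 254.8.

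The 13 libraries of a tissue shared 1 fit by edgeR 4.0.16 under R 4.3.3 (filterByExpr, TMM, robust quasi-likelihood F test, Benjamini-Hochberg adjustment over all genes, calls at an adjusted p below 0.05; shares for DESeq2 are of genes it gave an adjusted p). Tissue differences were fitted over all 26 libraries. Printed CPM are scaled by TMM over the 26 libraries, log2 CPM carry a prior count of 2, and the SE is the log2 fold change over the square root of F. Exon lengths come from GENCODE vM21 on GRCm38 and were used only for CPM per kb. Promoter sequences are RefSeq, GRCm38.p6. P-values weigh each difference against the spread between the sampled libraries. Those of the tissue differences treat all 26 libraries as independent, which the labels do not settle.

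The 7 genes and the marker and pathway lists were chosen with earlier results of these data known. All 7 genes were named in each comparison, and other lists gave up to 4 called genes in order of adjusted p, or up to 2 uncalled ones as values. The text gives a selection of these, with further genes (Vegfc, Vegfd, Pecam1, the macrophage and lymph node genes) chosen after their values were seen. For each of the 7, the 3 genes most like it were taken by Pearson's r among named genes whose log2 CPM averaged 0 or more. Alternatives were RLE factors, library size alone, DESeq2 1.42.0, limma 3.58.1 voom with quality weights, no filter, a stricter filter, only the groups compared, a replicate block, a lymphocyte covariate in the mesenteric arteries and each library left out. An adipocyte covariate in the aorta, and leaving out the 4 mesenteric libraries with over 10% of records not aligned the pair highest in lymphocyte markers or the 4 with Glycam1 above 1 CPM, were added after seeing the data. The fits were also run on simulated data with 200 genes changed, and the outcome is not reported here. The changed genes were drawn from a pool with a minimum average level, above that of Prox1 in the aorta.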

Additional observations from a re-analysis of the deposited data

Results flagged for a closer look

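In 3 of 42 groups of 4 or 5 libraries, 1 library lay far from the others by Dixon's test at the 95% level, which chance alone gives in about 1 in 20 groups. Prox1 was 46.7 CPM in KO AngII mesenteric replicate 3, against 12.0 to 17.6 CPM in the other 4, the library with the most lymphocyte and lymph node marker reads. Pdpn was 17.9 CPM in sham aorta replicate 1, against 16.0 to 16.2 CPM in the other 3, a gap that is small in absolute terms. Ccl21a was 7.08 CPM in KO AngII aorta replicate 3, against 12.7 to 16.1 CPM in the other 4, the KO AngII aorta with the lowest sum of adipocyte markers.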

How the results depend on the processing

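Under all scalings, filters and tools tried, the differences between tissues called for Prox1, Flt4, Ccl21a, Mmrn1 and Reln kept their direction, and 5 to 5 genes were called in sham, 5 to 7 in WT AngII and 6 to 7 in KO AngII mice when each library was left out in turn. For AngII in the aorta, 6 called genes became 3 with no filter on low counts, 2 with the replicate number as a block (Flt4 and Pdpn) and 3 to 6 when each library was left out. Over all genes, 4301 calls became 3612 with no filter and 3770 with the block, so the 7 genes lost a larger share of their calls. For KO AngII against sham in the aorta, 5 became 3 with the replicate block and 3 with the adipocyte covariate, where 5197 calls over all genes became 4031 and 4043, and 5 to 6 when each library was left out. For the AngII effect compared between tissues, 0 became 3 with DESeq2, 2 with limma voom (434 calls over all genes became 867 and 1251) and 0 to 3 when each library was left out, with 1 without KO AngII mesenteric replicate 4 and 1 without sham mesenteric replicate 2. The cause of these changes was not tested. Whether shared replicate numbers pair the samples is not given by the labels. The residual correlation of same-numbered libraries was over 0.1 in 1 of 12 pairs in the aorta, 7 of 12 in the mesenteric arteries and 3 of 13 across tissues. It ranged from -0.289 to 0.102, from -0.265 to 0.343 and from -0.118 to 0.133, and such values cannot settle the pairing.

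With library size alone, calls over all genes moved from 2796 higher and 2401 lower to 2192 and 4075 for KO AngII against sham in the aorta, from 3939 and 3544 to 5114 and 2471 for the tissue difference under WT AngII, from 4955 and 3857 to 6715 and 2648 under KO AngII, from 80 and 44 to 65 and 70 for KO AngII against sham in the mesenteric arteries, and from 0.68% and 1.66% of genes to 188 and 183 genes for the AngII effect compared between tissues. It moved the median log2 difference of all genes from 0.028 to 0.155 under WT AngII and from 0.058 to 0.196 under KO AngII.

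The values that changed sign were uncalled in the reported fit and under the alternative. Some were not small in either, such as Prox1 for KO against WT in the aorta, at -0.30 with all libraries, and Lyve1 for KO against WT in the mesenteric arteries, at 0.64. With the replicate block the log2 values were Prox1 0.068 and Pdpn -0.029 for KO against WT in the aorta, Mmrn1 0.022 for KO AngII against sham in the mesenteric arteries, Ccl21a -0.15 for the tissue difference of the KO effect. With the adipocyte covariate the log2 values were Lyve1 0.35, Pdpn -0.062, Ccl21a -0.15 and Mmrn1 -0.20 for KO against WT in the aorta. With limma voom the log2 values were Mmrn1 -0.10 for KO against WT in the aorta, Pdpn -0.031 and Mmrn1 -0.10 for KO against WT in the mesenteric arteries, Flt4 -0.049 for KO AngII against sham in the mesenteric arteries, Mmrn1 0.014 for the tissue difference of the KO effect. With library size alone the log2 values were Lyve1 -0.0076 for KO AngII against sham in the aorta, Pdpn 0.014 for the tissue difference of the KO effect. With the 4 libraries with over 10% not aligned left out the log2 values were Mmrn1 0.0099 for AngII in the mesenteric arteries, Flt4 -0.090, Pdpn -0.35 and Mmrn1 -0.45 for KO against WT in the mesenteric arteries, Flt4 -0.15 for KO AngII against sham in the mesenteric arteries. With the 4 libraries with Glycam1 above 1 CPM left out the log2 values were Mmrn1 0.0071 for AngII in the mesenteric arteries, Flt4 -0.068 for KO against WT in the mesenteric arteries, Flt4 -0.14 and Mmrn1 0.040 for KO AngII against sham in the mesenteric arteries. With the pair highest in lymphocyte markers left out the log2 values were Mmrn1 0.0073 for AngII in the mesenteric arteries, Flt4 -0.082, Pdpn -0.13 and Mmrn1 -0.19 for KO against WT in the mesenteric arteries, Flt4 -0.15 for KO AngII against sham in the mesenteric arteries. With the lymphocyte covariate the log2 values were Lyve1 -0.22, Flt4 -0.14 and Mmrn1 -0.11 for KO against WT in the mesenteric arteries, Flt4 -0.25 and Ccl21a -0.071 for KO AngII against sham in the mesenteric arteries. With the stricter filter the log2 values were Pdpn 0.0019 for the tissue difference of the KO effect. Leaving out each library in turn gave sign changes over these ranges. For AngII in the aorta they were Lyve1 -0.22 to 0.47. For KO against WT in the aorta they were Prox1 -0.72 to 0.60, Lyve1 -0.38 to 0.30, Pdpn -0.12 to 0.18, Ccl21a -0.22 to 0.69 and Mmrn1 -0.24 to 0.59. For KO AngII against sham in the aorta they were Lyve1 -0.077 to 0.30. For AngII in the mesenteric arteries they were Flt4 -0.14 to 0.034, Ccl21a -0.29 to 0.23, Mmrn1 -0.23 to 0.20 and Reln -0.26 to 0.0094. For KO against WT in the mesenteric arteries they were Lyve1 -0.14 to 0.91, Flt4 -0.10 to 0.30, Pdpn -0.16 to 0.22, Mmrn1 -0.13 to 0.16 and Reln -0.16 to 0.041. For KO AngII against sham in the mesenteric arteries they were Flt4 -0.15 to 0.25 and Mmrn1 -0.21 to 0.20. For the tissue difference in sham mice they were Pdpn -0.18 to 0.29. For the tissue difference of the KO effect they were Prox1 -0.057 to 1.27, Lyve1 -0.025 to 1.00, Flt4 -0.31 to 0.10, Pdpn -0.23 to 0.15, Ccl21a -0.22 to 0.70 and Mmrn1 -0.59 to 0.23.

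Limits: Prox1 had 4 to 18 counts in sham aortas, so its fold is imprecise. The mesenteric libraries differ widely in lymph node, pancreas and gut markers, and their intervals are given beside each gene.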
